A study of Mus musculus with 5 samples.

Results

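The 9 genes described here encode proteins that detect foreign or misplaced RNA and DNA and pass the signal on to interferon induction. They are Ddx58, Ifih1, Tlr3, Mavs, Tmem173, Ticam1, Tbk1, Ikbke and Irf3, taken by name from 750 endogenous probes of an immune gene panel, by a rule that uses no measured value but was set with earlier results of these data known. Their transcripts were counted with NanoString nCounter, which tallies barcoded probes without amplification, in the CD45- fraction of B16-OVA tumors, grown from a C57BL/6 melanoma line that expresses ovalbumin. Tumors of KO mice (Prdm1fl/flFoxP3YFP-Cre, n = 2) were compared with tumors of WT mice (FoxP3YFP-Cre, n = 3), to ask how the loss of Blimp1, the product of Prdm1, in Treg cells affects the non-leukocyte cells of the tumor.

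KO and WT mice shared the C57BL/6 background, the Cre allele and the treatment, which was tumor inoculation with a first NP-OVA injection in CFA (day 0) and a boost in IFA (day 7). Tumors measured at most 1.5 cm3, and 100 ng of RNA was used per sample. Cre is driven by Foxp3, so the deletion falls in Foxp3+ T-cells, which are CD45+ and outside the sort, and the inoculated tumor cells carry no deletion. The age is given only as a range for all mice of the study, and the labels name samples, which the study's legend counts as mice. P-values therefore rest on the spread among these samples, which may be partly technical.

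RIG-I (encoded by Ddx58) and MDA5 (encoded by Ifih1) are helicases that recognize viral double-stranded RNA in the cytosol, and both signal through MAVS on mitochondria. TLR3 recognizes double-stranded RNA in endosomes and signals through TRIF, encoded by Ticam1, so this pair is not cytosolic. STING, listed on the panel as Tmem173, is the endoplasmic reticulum adaptor of cytosolic DNA sensing. These routes meet at the kinases TBK1 and IKKε (encoded by Ikbke), which phosphorylate IRF3, a transcription factor for type I interferon genes. Interferon in turn is known to induce the sensor genes, whereas IRF3 is expressed constitutively in most cells.

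Endogenous probes summed to 450207 and 461822 counts in KO and to between 369515 and 423472 counts in WT, and the 401 that exceeded background in 2 or more samples entered the test. Background was set for each sample at 2 SD over the mean of its negative controls and ranged from 13.1 to 17.7 counts over the samples. All 9 genes were above it in all 5 samples, with raw counts of 87 or more. Ptprc, which encodes CD45, had 3 and 1 raw counts in KO and 1, 4 and 4 in WT. Prdm1 had at most 10 counts in any sample, which does not test the deletion because the sort leaves out Treg cells. Of the melanocyte markers listed, only Mcam and S100b were on the panel, each with 1559 or more raw counts in every sample. S100b had 1724 and 1848 normalized counts in KO, against 1979, 1987 and 1894 in WT. Mcam had 2684 and 2607 normalized counts in KO, against 1727, 1917 and 1668 in WT (log2 fold change 0.58, adjusted p = 0.487 by edgeR and 0.00401 by DESeq2), and its part in the levels of the 9 genes was not tested. Of 45 leukocyte markers on the panel, 9 and 4 lay above background in KO 1 and KO 2, and 9, 10 and 4 in WT 1, WT 2 and WT 3.

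Short stretches around the starts of 4 of the genes are shown because they match core letters of motifs of interferon-activated or IRF-family factors. They are RefSeq sequences of build GRCm38.p6, 30 bases each, read 5′ to 3′ along the gene, all from genes on the minus strand. Capitals mark the match, and positions are counted from 1 at the annotated start, with negative numbers before it. The search covered both strands from 250 bases before to 50 bases after a start, and 8 of the 9 genes had an entry. For Tlr3 and Ikbke the start in that entry lies inside the gene as RefSeq bounds it, and positions are counted from the entry's start.
Ddx58, chr4:40239804-40239833: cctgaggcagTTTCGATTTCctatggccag
Ifih1, chr2:62646206-62646235: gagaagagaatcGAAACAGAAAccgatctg
Tlr3, chr8:45410420-45410449: agtgaatggcTTTCACTTtgtttagacaca
Ikbke, chr1:131279676-131279705: cagaatcctcTTTCCCTTtactgaaggggg

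The core of the interferon-stimulated response element, GAAANNGAAA, was found in 2 of these 8 genes, Ddx58 (positions 3 to 12, on the opposite strand) and Ifih1 (positions 33 to 42). It was present in 3.44% of all 32851 windows of this length. The shorter IRF core AANNGAAA, which every response element core contains, was found in 4 of the 8, the same 2 genes together with Tlr3 (positions -59 to -52) and Ikbke (positions -132 to -125), both on the opposite strand. Ddx58 also held this shorter core at positions -59 to -52, and Ifih1 at positions 29 to 36, matches not marked above. That shorter core was present in 23.9% of all windows. The 3 sensors held it, as did Ikbke among the 5 other genes with an entry, which is too few genes to compare the roles. Any part of these matches in the levels was not tested. A match describes letters and not a binding site.

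The sensors had lower means in KO, with WT 1 at the level of the KO samples. In bulk RNA, fewer cells of a type and less RNA per cell cannot be told apart. Counts below are normalized to the housekeeping probes, and levels are not compared between genes, because probes differ in efficiency. Ddx58 had 1292 and 1374 normalized counts in KO 1 and KO 2, against 1373, 2412 and 1814 in WT 1, WT 2 and WT 3. WT 1 fell between the KO samples, and WT 2 and WT 3 lay above both. Means were 1333 ± 58.3 in KO (SD, n = 2) and 1866 ± 522 in WT (SD, n = 3), for a log2 fold change of -0.49 ± 0.25 (SE, adjusted p = 0.744 by edgeR).

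Ifih1 had 600.3 and 572 normalized counts in KO, against 496, 1159 and 973 in WT. The WT samples here spanned a 2.34-fold range, whose lowest member, WT 1, was below both KO samples. Means were 586 ± 19.9 in KO and 876 ± 342 in WT, a log2 fold change of -0.58 ± 0.37 (SE, adjusted p = 0.785 by edgeR). Tlr3 had 235 and 185 normalized counts in KO, against 222, 389 and 267 in WT, and again WT 1 stood between the KO samples. Its means were 210.4 ± 35.3 in KO and 293 ± 86.3 in WT, a log2 fold change of -0.48 ± 0.29 (SE, adjusted p = 0.744 by edgeR).

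**Figure D1:**
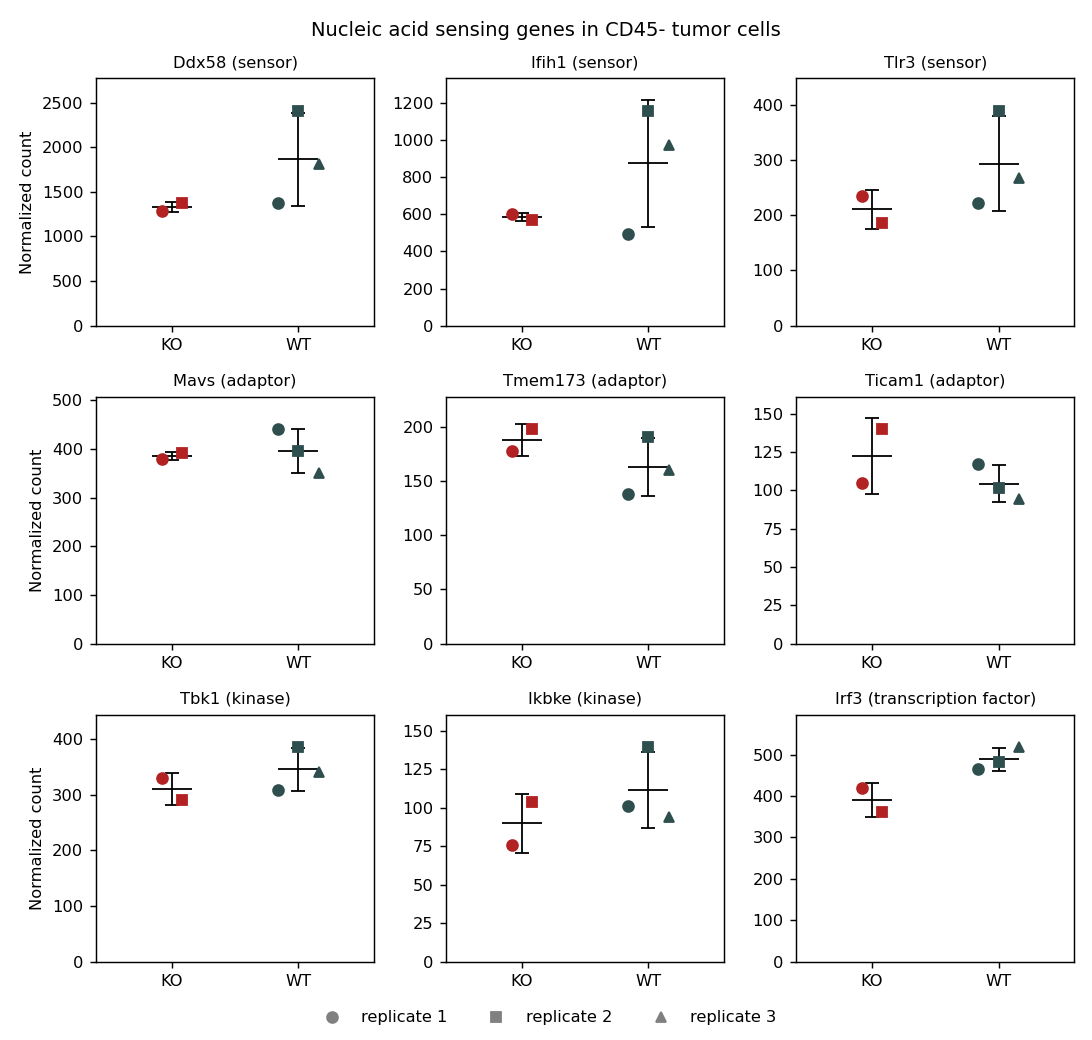
Normalized counts (vertical axes, from 0) of the 9 genes in each sample, with KO left of WT. Symbols mark the replicate number, and the bar and whiskers give the mean and SD of a group. For the 3 sensors WT 1 sits at the level of the KO samples, and Irf3 is the gene whose KO samples both lie below all WT samples.

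None of the sensors separated the groups, and each estimate moved with the WT sample left out. Without WT 1, the log2 fold changes were -0.66 for Ddx58 (edgeR adjusted p = 0.225), -0.86 for Ifih1 (edgeR adjusted p = 0.0783) and -0.64 for Tlr3 (edgeR adjusted p = 0.435). Without WT 2 they were -0.26, -0.32 and -0.22. With WT 1 left out, 2 of the 9 genes, Ddx58 and Ifih1, had an unadjusted p under 0.05, both lower in KO, against 10.2% of all probes lower at that threshold, whereas 0 of the 9 did with any other sample left out. WT 1 was singled out after its values were seen. In the same 4 samples, 5 of the 9 (the sensors, Tbk1 and Irf3) had both KO samples below WT 2 and WT 3, against 29.7% of all probes.

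None of the adaptors passed the test, and their estimates lay nearer 0 than those of the sensors. Mavs, which relays the signal of both helicases, had 380 and 392 normalized counts in KO, against 442, 397 and 350 in WT, so that both KO samples fell inside the WT range. Its log2 fold change was -0.04 (SE 0.15, edgeR adjusted p = 0.974), with a 95% confidence interval of -0.41 to 0.33, and its sign turned without WT 1 (0.05), with TMM scaling (0.0041), with DESeq2 size factors (0.0058) and with positive controls only (0.10).

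Tmem173 had 178 and 198 normalized counts in KO, against 138, 191 and 160 in WT. KO 2 was above every WT sample and KO 1 was below WT 2, for a log2 fold change of 0.20 ± 0.20 (SE, adjusted p = 0.841 by edgeR) with an interval of -0.30 to 0.71. Ticam1 had 105 and 140 normalized counts in KO, against 117, 101 and 94.1 in WT. The higher KO mean came from KO 2, since the log2 fold change of 0.23 ± 0.22 (SE, adjusted p = 0.841 by edgeR, interval -0.32 to 0.79) was 0.01 without that sample. The intervals of all 3 adaptors include changes in either direction, of up to 1.73-fold upward for Ticam1.

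The kinases and their target had lower means in KO. Tbk1 had 330 and 290 normalized counts in KO, against 309, 386 and 341 in WT, with KO 1 inside the WT range. Its log2 fold change was -0.16 (SE 0.16, edgeR adjusted p = 0.841), and -0.07 without WT 2. Ikbke, the related kinase that is more inducible, had 76.1 and 104 normalized counts in KO, against 101, 139.7 and 94.1 in WT. KO 2 was above WT 1 and WT 3, and the log2 fold change of -0.31 ± 0.27 (SE, adjusted p = 0.835 by edgeR) ranged from -0.55 without KO 2 to -0.11 without KO 1.

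Irf3 was the exception among the 9 in that its groups did not overlap after scaling to the housekeeping probes. Its raw counts did overlap, at 480 and 366 in KO, against 452, 452 and 485 in WT. The housekeeping factors ranged from 1.01 to 1.14 in KO and from 0.93 to 0.97 in WT. The separation was thus absent from the raw counts and appeared after scaling. Irf3 had 420.04 and 361 normalized counts in KO, against 465, 482 and 519 in WT. Means were 391 ± 41.7 in KO (SD, n = 2) and 489 ± 27.4 in WT (SD, n = 3), for a log2 fold change of -0.32 (SE 0.13, interval -0.66 to 0.01). The edgeR quasi-likelihood test gave an unadjusted p = 0.0566 and an adjusted p = 0.710, so Irf3 missed both thresholds. The estimate ranged from -0.44 without KO 1 to -0.22 without KO 2. Unlike the sensors, WT 1 was near WT 2 here, and the WT samples spanned a 1.11-fold range. Of all 401 probes, 14.7% had both KO samples below all WT samples and 8.98% had both above, so 1 of 9 is no larger a share than that of the panel.

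**Figure D2:**
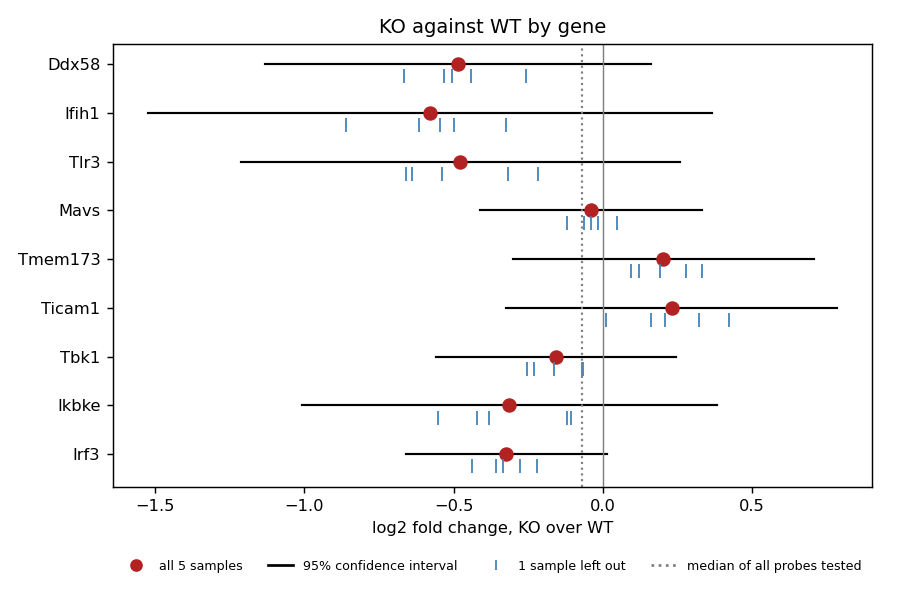
Log2 fold change of KO over WT for each of the 9 genes (dots, edgeR fit on all 5 samples) with its 95% confidence interval (lines) and the estimates with 1 sample left out (ticks). All 9 intervals include 0, and the dotted line marks the median of the 401 probes, -0.07.

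Of the 9 genes, 7 were lower and 2 higher in KO by their means (median log2 fold change -0.31), against 243 lower and 158 higher and a median of -0.07 for the 401 probes tested. None of the 9 passed an unadjusted p of 0.05, where 6.23% of all probes did, or an adjusted p of 0.05, where 0% did (0 of 401 by edgeR, with 25 at an unadjusted p under 0.05 and 3 adjusted calls by DESeq2, namely Relb, Mcam and Lcp1). By role, the median log2 fold change was -0.49 for the sensors, 0.20 for the adaptors, and -0.31 for the kinases and Irf3. With scaling by the positive controls alone, the median of all probes was 0.07, a shift of over 0.1, and the sensors kept lower and Tmem173 and Ticam1 higher means in KO.

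The roles were then set against each other within each sample, where the scaling to housekeeping probes nearly cancels. The mean log2 count of the 3 sensors exceeded that of the other 6 genes by 1.46 and 1.25 in KO, against 1.29, 2.08 and 1.88 in WT. The size of this difference depends on the probes, and only its change between samples can be read. WT 1 lay between the KO samples, and WT 2 and WT 3 lay above both. The means were 1.35 ± 0.15 in KO (SD, n = 2) and 1.75 ± 0.41 in WT (SD, n = 3), a difference of -0.40 on the log2 scale that was -0.63 without WT 1 and -0.23 without WT 2. The difference between groups was no larger than the SD of the WT samples.

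Interferon-stimulated genes moved through the samples in the same order as the sensors at the high end. Relative to the WT mean, the 29 tested genes of this list, none of them among the 9, averaged -0.60 and -0.47 on the log2 scale in KO 1 and KO 2, against -0.84, 0.71 and 0.13 in WT 1, WT 2 and WT 3. The sensors averaged -0.41 and -0.52 in KO, against -0.50, 0.45 and 0.05 in WT. Both were highest in WT 2, next in WT 3, and low in WT 1 and in both KO samples. The mean of all 401 probes had the same high end over a narrower range, at -0.13 and -0.01 in KO, against -0.20, 0.16 and 0.04 in WT. The kinases and Irf3 averaged -0.27 and -0.26 in KO, against -0.12, 0.16 and -0.05 in WT, again with WT 2 highest and WT 3 next. The adaptors averaged 0.03 and 0.24 in KO, against 0.04, 0.07 and -0.11 in WT, where KO 2 was highest and WT 3 lowest. Of the 29 interferon-stimulated genes, 25 were lower in KO by their means (median log2 fold change -0.66), and that median was -0.93 without WT 1 and -0.32 without WT 2. The part of interferon exposure in the sensor levels was not tested.

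**Figure D3:**
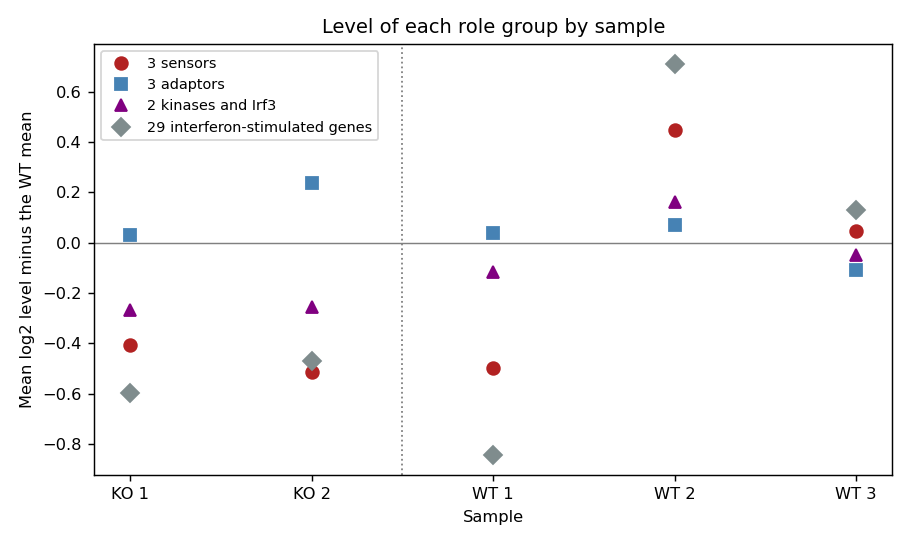
Mean log2 level of each role group and of 29 interferon-stimulated genes in each sample (KO left of the dotted line, WT right of it), relative to the mean of the WT samples. Sensors and interferon-stimulated genes are lowest in KO 1, KO 2 and WT 1 and highest in WT 2, while the adaptors stay within -0.11 to 0.24.

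The spread among WT samples was widest for the sensors. The highest and lowest WT samples differed on the log2 scale by 0.81 for Ddx58, 1.22 for Ifih1 and 0.80 for Tlr3, compared with 0.32 to 0.47 for the adaptors and 0.16 to 0.56 for the kinases and Irf3. The median of this range was 0.46 over the 401 probes and 1.55 over the 29 interferon-stimulated genes. The 2 KO samples differed by 0.09 for Ddx58, 0.07 for Ifih1 and 0.34 for Tlr3, and by 0.04 to 0.44 for the other 6 genes.

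The probes with the most similar profile were found for each gene, as the smallest root mean square difference between centered log2 counts over the 5 samples, among 324 other probes above background in every sample. For Ifih1 they were Xaf1 (0.06), Ifi35 (0.08) and Herc6 (0.13), all on the interferon-stimulated list, against a median of 0.47 over the probes. Xaf1, a proapoptotic factor, had 612 and 650.04 normalized counts in KO, against 517, 1247 and 1083 in WT. For Ddx58 they were Ifit2 (0.07), Irf2 (0.09) and Bst2 (0.09), with a median of 0.36. For Tlr3 they were Itgb4 (0.10), Pml (0.10) and Ifit2 (0.12), with a median of 0.39, and Itgb4 itself had 21.7 to 42.7 normalized counts.

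The profiles nearest to the adaptors and to Irf3 were of other genes. For Mavs they were Gtf3c1, Ifnar1 and Nfkb1 (0.05 to 0.07). For Tmem173 they were Stat3, Cd37 and Jam3 (0.05 to 0.09). Stat3, the transcription factor of interleukin-6 signaling, had 2874 and 3128 normalized counts in KO, against 2122, 3207 and 2483 in WT. For Ticam1 they were Cyfip2, Icam4 and Plaur (0.05 to 0.10). For Tbk1 they were Runx1, Bid and Tfeb (0.05 to 0.08), and for Ikbke they were Cyld, a deubiquitinase that restrains NF-κB signaling, Ikzf2 and Tcf7 (0.11 to 0.14). For Irf3, Psen2 (0.02) and Bmi1 (0.03) were the nearest. Among so many probes and only 5 samples some close profiles arise readily, and no test was made.

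A wider list held other genes of nucleic acid sensing and genes shared with other pathways, such as Nfkb1, Mapk8, Irak1 and Atg5. In this list Map3k1 and Traf2 had the smallest p. The panel held 37 of its genes and 33 entered the test. There 10 means were higher and 23 lower in KO (median log2 fold change -0.11), against 158 higher and 243 lower for the 401 probes (median -0.07). At an unadjusted p under 0.05, 1 was higher and 1 lower, where 6.23% of all probes passed, and 0 passed the adjusted threshold. Map3k1, a kinase upstream of JNK, had 358 and 319 normalized counts in KO, against 236, 239.96 and 202 in WT, a log2 fold change of 0.58 (edgeR adjusted p = 0.487). The next 2 by p with higher means were Mapk8, which encodes JNK1, at 0.30, and Map3k7, which encodes TAK1, at 0.11.

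Traf2, an adaptor that also acts in tumor necrosis factor signaling, had 319 and 295 normalized counts in KO, against 409, 429 and 485 in WT, a log2 fold change of -0.52 (edgeR adjusted p = 0.487). Irf7, the interferon-inducible relative of Irf3, had 126 and 149 normalized counts in KO, against 142, 501 and 315 in WT, so WT 1 lay between the KO samples as it did for Ddx58 and Tlr3. Its log2 fold change was -1.22 (SE 0.55, edgeR adjusted p = 0.710), against -0.32 for Irf3. Tank, a scaffold of TBK1 and IKKε, had 527 and 564 normalized counts in KO, against 573, 674 and 738 in WT, a log2 fold change of -0.28 (edgeR adjusted p = 0.744). In this list 6 of 33 genes (Traf2, Tank, Fadd, Irak1, Atg5 and Chuk) had both KO samples below all WT samples, where 14.7% of all probes did. Only 1, Map3k1, had both above, where 8.98% of all probes did.

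**Figure D4:**
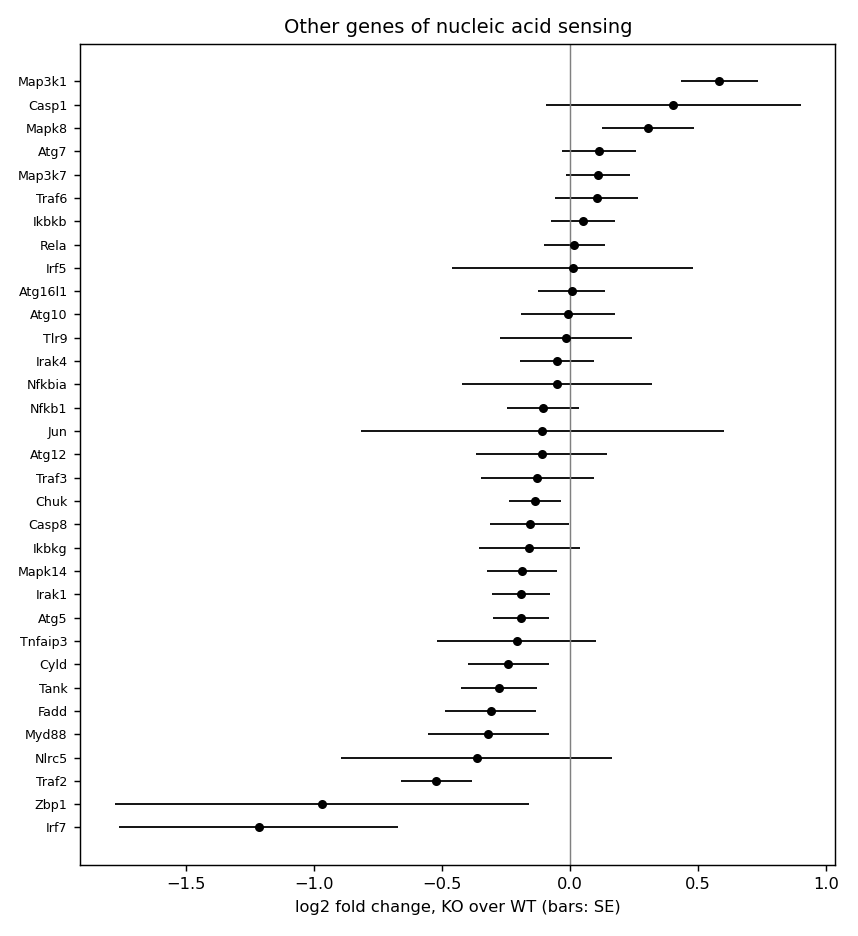
Log2 fold change of KO over WT (dots, edgeR) with its SE (bars) for the 33 tested genes of the wider list, none of them among the 9. The list includes genes shared with other pathways. Irf7 has the lowest estimate (-1.22) and Map3k1 the highest (0.58), and 23 of the 33 estimates are below 0.

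The products of the pathway were largely undetected. Ifnb1, which encodes interferon-β, had 8 and 5 raw counts in KO, against 3, 1 and 6 in WT, below background in all 5 samples. Of 11 induced cytokine genes on the panel 4 were tested, and Ifna1 and Ifna4 passed the filter at about the background level. Cxcl10, a chemokine induced by both IRF3 and interferon, had 1509.5 and 1760 normalized counts in KO, against 1573, 4202 and 3854 in WT, a log2 fold change of -0.97 ± 0.45 (SE, adjusted p = 0.710 by edgeR). Ccl5, another target of these factors, had 178 and 319 in KO, against 178, 338 and 306 in WT. Both had their lowest counts in KO 1 and WT 1, and neither separated the groups.

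Myeloid cells carry many nucleic acid sensors, so their markers are given beside these results. Of 18 myeloid markers on the panel, 7 were tested, and the summed normalized counts of the list were 414 and 431 in KO, against 326, 421 and 285 in WT. The 7 tested genes had a median log2 fold change of 0.03, with 4 higher and 3 lower means in KO. Of these, Fcgr1, Fcer1g, Cx3cr1, S100a8 and Cd86 had at most 22 raw counts in any sample, near the background of 13.1 to 17.7. Lyz2 had 36.8 and 38.5 normalized counts in KO, against 28.8, 46.9 and 11.8 in WT. Its log2 fold change was 0.36 (edgeR adjusted p = 0.884), and -0.0093 without WT 3. The sums also hold the markers that were not tested, so neither the median nor the sums measure myeloid content closely. Cd68, a macrophage lysosomal protein that other cells also make, had 243 and 246 normalized counts in KO, against 141, 210.1 and 128 in WT, and was the tested myeloid gene with both KO samples above all WT samples. Without it the sums were 171 and 185 in KO, against 185, 211 and 156 in WT. The macrophage marker Emr1 had 1 raw count in every sample, and Itgam at most 5. The 3 tested endothelial genes were all lower in KO by their means (median log2 fold change -0.41, and -0.53 to -0.16 with 1 sample left out). Their mean log2 levels overlapped, at 6.82 and 7.45 in KO, against 7.28, 7.73 and 7.86 in WT. For the 5 tested fibroblast genes the median log2 fold change was 0.13 and the mean was -0.08. Mean log2 levels of the fibroblast genes were 6.31 and 5.34 in KO, against 5.96, 6.58 and 5.36 in WT. The part of these cells in the levels of the 9 genes was not tested.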

How the data were processed

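Raw barcode counts of 784 probes (750 endogenous, 20 housekeeping, 8 negative and 6 positive controls) were deposited for 5 samples, with nothing subtracted or scaled by the authors. A deposited table of normalized signal, made by the authors with nSolver, equals the raw count times 1 factor per sample with a floor of 15, and was used as an alternative. Columns were matched through the sample codes in the labels.

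The 20 housekeeping probes gave 1 scaling factor per sample, from their geometric mean, by which counts were divided. KO and WT were compared over 401 endogenous probes with edgeR 4.0.16 (quasi-likelihood, genotype only; R 4.3.3), adjusted by Benjamini-Hochberg over all of them at a threshold of 0.05. Confidence intervals (95%) use the SE and degrees of freedom of that fit. Log2 levels add a pseudocount of 1. Alternatives were TMM, DESeq2 1.42.0 size factors and test, positive controls, total count, housekeeping probes without G6pdx, other filters, background subtraction, limma 3.58.1, the methods' t-test, the deposited signal, a replicate block and leaving out each sample. The fits were tested on simulated data.

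Genes and lists were chosen with earlier results of these data known. Text names the 9 genes, their 3 nearest profiles (1 of which is not reported here), up to 3 genes per direction of the wider list by smallest p, and check genes. Remaining cytokines and markers were named after their values were seen. Of 19 T and NK cell and 8 B cell markers on the panel, 2 and 0 were tested. The accessions of all 9 genes matched the RefSeq table, and Tmem173 is Sting1 there. The deposited files name no build, so the only coordinates given are those of the RefSeq windows.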

Additional observations from a re-analysis of the deposited data

How the results depend on the processing

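Across 18 alternatives, 158 of 162 estimates for the 9 genes kept their direction and none passed an adjusted p of 0.05 (smallest edgeR adjusted p = 0.0783, Ifih1 without WT 1). The 4 that changed direction were all Mavs, at 0.0041 with TMM, 0.0058 with DESeq2 size factors, 0.10 with positive controls only and 0.047 without WT 1. The count of probes at an unadjusted p under 0.05, 25 of 401, was 39 with no filter, 16 with the replicate block, and 10 to 50 with 1 sample left out. The count at an adjusted p under 0.05 was 3 with the DESeq2 Wald test, and 0 with each sample left out. With 1 sample left out, the median of the 9 genes ranged from -0.36 to -0.12, that of the sensors from -0.66 to -0.26, that of the adaptors from 0.01 to 0.28, and that of the kinases and Irf3 from -0.36 to -0.12. The sensors minus the other members ranged from -0.64 to -0.26 in the edgeR fit. A fit on a single KO sample takes its spread from WT. The unadjusted p of Irf3 was 0.0469 with probes averaging 50 raw counts or more (edgeR), 0.0480 with the methods' t-test on log2 values and 0.0425 with limma on the deposited signal. In edgeR fits with other scaling, the Irf3 log2 fold change was weaker than the -0.32 of the main fit. It was -0.17 with positive controls only and -0.27 with TMM or DESeq2 size factors. With total count it was -0.31, and without G6pdx -0.30. Irf3 missed the unadjusted threshold in all of these fits and with the replicate block. Same-numbered samples correlated in their deviations at 0.295 and 0.00025, and with 2 KO samples these mirror each other, so they cannot show whether replicate numbers mark pairs. A fit with the replicate block gave Ddx58 -0.45, Ifih1 -0.37 and Irf3 -0.28, and none of the 9 passed the adjusted threshold. Causes of these differences were not tested. All 9 genes were above background in every sample, and the number of samples (2 and 3) limits the precision.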
